A study of Mus musculus with 8 samples.

Results

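The EGF receptor family was described here through 10 genes chosen by symbol out of 21240 genes in a count table of NMuMG cells: 6 ligand genes (Areg, Ereg, Hbegf, Tgfa, Btc and Epgn), 3 receptor genes (Egfr, Erbb2 and Erbb3) and 1 gene for a feedback inhibitor of the receptors (Errfi1). NMuMG is an established wild-type epithelial line from normal mouse mammary gland. The cells had been given BRM014, a compound that blocks the ATPases SMARCA4 and SMARCA2 of the SWI/SNF chromatin remodeller, or DMSO, its vehicle. The 4 groups, each of 2 libraries, were BRM014 for 6 h, DMSO for 6 h, BRM014 for 30 h and DMSO for 30 h. Cells of all groups were grown in medium with serum and insulin, short of confluency, and no dose of BRM014 is given in the sources used here. The labels call the libraries biological replicates without saying what separated them. The p-values below therefore weigh differences between groups against the spread between these libraries, whatever its source.

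EGF-family ligands are made as membrane-bound precursors, which metalloproteases cut to release the active peptide. Ligand binding pairs EGFR with itself or with ERBB2, which has no known ligand, or ERBB3, whose kinase is weak and which binds neuregulins, and the paired receptors switch on the Ras to ERK and PI3-kinase pathways. ERK in turn raises transcription of several of the ligands and of Errfi1, whose product MIG6 binds the EGFR kinase domain and inhibits it. In the mouse mammary gland amphiregulin, the product of Areg, is the EGFR ligand through which estrogen drives duct growth at puberty.

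The libraries held 17859693 to 29955366 counts, and 9 of the 10 genes passed the filter on low counts; Epgn did not. Levels are given as CPM, counts scaled to a common library size with TMM factors, and fold changes are log2 values ± their standard errors from 1 edgeR quasi-likelihood fit over all 8 libraries, with n = 2 libraries in each group. A gene was called when its p, adjusted by Benjamini-Hochberg over 11835 tested genes, was below 0.05. The keratin and junction genes Krt8, Krt18, Cdh1 and Ocln were detected in every library, whereas the epithelial markers Epcam, Cldn3 and Cldn7 had no count in any. Of the other epithelial markers, Krt7 had 1 to 9 counts in a library, and Cldn4 and Esrp1 had 0 to 1. Krt8 (1650 to 2920 CPM over the libraries) and Krt18 (2290 to 4450 CPM) made up most of the sum over the 10 epithelial markers. That sum was 6810 to 8040 CPM in BRM014 at 30 h, against 4380 to 4540 CPM in DMSO at 30 h. At 6 h it was 5280 to 5750 CPM in BRM014, against 5210 to 5670 CPM in DMSO. The part of these markers in the results below was not tested. Summed markers of fibroblasts, immune cells, endothelial cells and adipocytes stayed at or below 8 CPM in every library, and those of myoepithelial cells were 0.0652 to 2.26 CPM in BRM014 against 3.59 to 13 CPM in DMSO, there mostly from Krt14. In bulk RNA, fewer cells of a kind and less RNA per cell cannot be told apart.

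A pair of promoter stretches are shown because they belong to the members with the largest fall and the largest rise when all libraries were used, and share 3 motifs. RefSeq sequence on GRCm38.p6 was available for 7 members, in 8 windows of 250 bases ending just before an annotated start. Ereg, Hbegf and Erbb3 had no window and were not searched. In the windows 5 motifs were searched on both strands (TGANTCA for AP-1, TGACGTCA for the cAMP response element, TATAAA for the TATA box, GGGCGG for the GC box and CCAAT for the CCAAT box). Capitals mark every match, read 5′ to 3′ on the plus strand.
Areg, chr5:91139349-91139598: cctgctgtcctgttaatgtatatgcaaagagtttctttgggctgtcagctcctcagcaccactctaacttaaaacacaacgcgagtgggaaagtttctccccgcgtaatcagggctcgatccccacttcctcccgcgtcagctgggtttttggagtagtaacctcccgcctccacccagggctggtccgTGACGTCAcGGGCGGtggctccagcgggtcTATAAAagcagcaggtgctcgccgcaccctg
Errfi1, chr4:150854820-150855069: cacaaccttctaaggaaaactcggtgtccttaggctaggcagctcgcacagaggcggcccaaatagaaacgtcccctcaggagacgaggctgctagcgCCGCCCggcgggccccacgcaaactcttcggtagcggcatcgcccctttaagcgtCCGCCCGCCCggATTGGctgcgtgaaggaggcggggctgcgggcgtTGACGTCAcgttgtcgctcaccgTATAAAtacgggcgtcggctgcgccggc
The cAMP response element TGACGTCA lay 61 to 54 bases before the Areg start and 51 to 44 bases before the Errfi1 start, and a TATAAA 31 to 26 and 28 to 23 bases before them. In 32851 windows of this kind the first motif occurred in 1.55% and the second in 12.4%. Of the 8 windows of members TGACGTCA was found in these 2 alone, while TATAAA was found in the window of Epgn too. A GC box or its reverse complement occurred in the windows of Areg and Errfi1 as well, with 2 of the 3 in Errfi1 overlapping each other, as it did in 32.7% of all windows. An AP-1 site was in none of the 8 windows and in 6.75% of all. The window of Errfi1 also lies over an exon of an antisense non-coding gene, 1700045H11Rik, and a second annotated Errfi1 start further upstream had no match to any of the 5 motifs. A match of letters is a description of the sequence and does not show binding.

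After 6 h of BRM014, 4 of the 5 tested ligand genes were lower, and the receptor genes and Errfi1 were not called. Areg, Ereg, Tgfa and Btc fell, Hbegf did not pass, and no member rose. The 4 called of 9 tested compare with 23.8% of all tested genes, 9.35% higher and 14.4% lower, and the members' median log2 fold change was -0.12 against -0.01 over all tested genes. The 2815 calls over all genes became 1719 on dropping replicate 1 of BRM014 at 6 h, 1415 on dropping replicate 2, and 1787 and 1929 on dropping replicate 1 and 2 of DMSO at 6 h, while the members had 3 or 4 calls. With library totals in place of TMM, 54.9% of the calls over all genes were higher, against 39.3% with TMM, and the members had 3 calls, all lower.

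Areg had the highest ligand level per length of exon in every library and, with all libraries, the largest fall at 6 h. On dropping replicate 1 of DMSO at 6 h it had -0.86 where Ereg had -0.98, and on dropping replicate 1 of BRM014 at 6 h it had -1.30 where Ereg had -1.33. It was measured at 78.6 and 73.5 CPM in BRM014 at 6 h, against 223 and 141 CPM in DMSO at 6 h. At 30 h it stood at 54.8 and 43.2 CPM in BRM014, against 91.0 and 59.0 CPM in DMSO. Both BRM014 libraries lay below both DMSO libraries at each time, as they did in 34.4% of all tested genes at 6 h and 33.9% at 30 h. The 2 DMSO libraries differed from each other 1.58-fold at 6 h and 1.54-fold at 30 h. The log2 fold change was -1.26 ± 0.21 at 6 h (adjusted p = 0.000697), while it was -0.62 ± 0.21 at 30 h (adjusted p = 0.0379). The difference between the 2 effects did not pass (0.64 ± 0.30, adjusted p = 0.248). It was called under some alternatives, among them no filter on low counts (0.62, adjusted p = 0.00269). Without the filter the difference lay near the 0.64 of the main fit, while its adjusted p was far below the 0.248 found there. P-values without the filter are therefore given little weight here. Dropping replicate 1 of DMSO at 30 h gave a difference of 1.00. The 6 h value ranged from -1.56 to -0.86 with any 1 library left out and kept its call each time. The 30 h call ended with DESeq2 (adjusted p = 0.160), with ribosomal protein scaling (adjusted p = 0.0628) and with replicate 1 or 2 of BRM014 at 6 h left out (adjusted p = 0.0523 and 0.0517). Dropping replicate 1 of DMSO at 30 h gave -0.27 (adjusted p = 0.357), and dropping replicate 2 of BRM014 at 30 h gave -0.44 (adjusted p = 0.266).

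Ereg, the gene for epiregulin and the neighbour of Areg on chromosome 5, fell at the early time and did not pass at the late one. Its level was 52.6 and 42.3 CPM in BRM014 at 6 h, against 118 and 95.4 CPM in DMSO at 6 h. At 30 h BRM014 libraries had 51.6 and 48.8 CPM, within the range of the DMSO libraries at 63.4 and 45.3 CPM. The log2 fold change was -1.17 ± 0.16 at 6 h (adjusted p = 0.000138), while it was -0.11 ± 0.16 at 30 h (adjusted p = 0.616). The difference between the 2 effects, 1.06 ± 0.22, passed the test (adjusted p = 0.0124). Dropping replicate 1 of DMSO at 6 h ended that call (0.87, adjusted p = 0.0860), as did dropping replicate 2 of BRM014 at 6 h (0.91, adjusted p = 0.0787).

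Tgfa, which encodes transforming growth factor alpha, was called as lower at both times, with a smaller fall at 6 h than Areg and Ereg. BRM014 libraries held 56.1 and 58.4 CPM at 6 h, against 82.2 and 81.1 CPM in DMSO, and 73.7 and 64.4 CPM at 30 h, against 90.9 and 83.1 CPM in DMSO. The BRM014 libraries lay wholly below the DMSO libraries at both times, as in 34.4% of all tested genes at 6 h and 33.9% at 30 h. The log2 fold change was -0.51 ± 0.10 at 6 h (adjusted p = 0.00254), while it was -0.33 ± 0.10 at 30 h (adjusted p = 0.0202). The difference between the 2 effects did not pass (0.18 ± 0.14, adjusted p = 0.539). The Tgfa call at 30 h ended with ribosomal protein scaling (-0.25, adjusted p = 0.152) and with only the 4 libraries of the comparison (adjusted p = 0.0584). It also ended on dropping replicate 1 of DMSO (-0.26, adjusted p = 0.119) or replicate 2 of BRM014 at that time (-0.23, adjusted p = 0.173).

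Btc, the gene for betacellulin, was expressed at a low level and fell at 6 h. It had 6.11 and 7.33 CPM in BRM014 at 6 h, against 8.90 and 12.3 CPM in DMSO, and 9.63 and 10.1 CPM in BRM014 at 30 h, against 8.59 and 9.36 CPM in DMSO. The log2 fold change was -0.65 ± 0.20 at 6 h (adjusted p = 0.0280), while it was 0.14 ± 0.19 at 30 h (adjusted p = 0.608), and the difference between them did not pass (0.79 ± 0.28, adjusted p = 0.113). The 6 h call ended with library totals (adjusted p = 0.0536) and with ribosomal protein scaling (adjusted p = 0.0921). Dropping replicate 2 of DMSO ended it too (-0.41, adjusted p = 0.250), and so did dropping replicate 1 (-0.53, adjusted p = 0.194) or replicate 2 (-0.79, adjusted p = 0.0715) of BRM014 at that time.

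Hbegf, whose product is heparin-binding EGF-like growth factor, did not pass at either time. BRM014 libraries at 6 h held 117 and 102 CPM, between the 2 DMSO libraries at 122 and 84.6 CPM (0.08 ± 0.16, adjusted p = 0.753). At 30 h they held 67.1 and 66.3 CPM, above the DMSO libraries at 61.9 and 47.5 CPM, an order found in 32.9% of all tested genes. The log2 fold change was 0.29 ± 0.16 (adjusted p = 0.184). Hbegf was called as higher at 30 h with the replicate number as a block (0.31, adjusted p = 0.0384). It was also called with no filter on low counts (0.28), where p-values carry little weight as said for Areg. Dropping replicate 1 of DMSO at 30 h gave 0.50. Epgn, the gene for epigen, had 2 to 9 counts in a library, with 2 and 3 in BRM014 against 3 and 4 in DMSO at 6 h, and 3 and 3 in BRM014 against 9 and 3 in DMSO at 30 h. A difference in Epgn was not detectable at this depth.

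**Figure D1:**
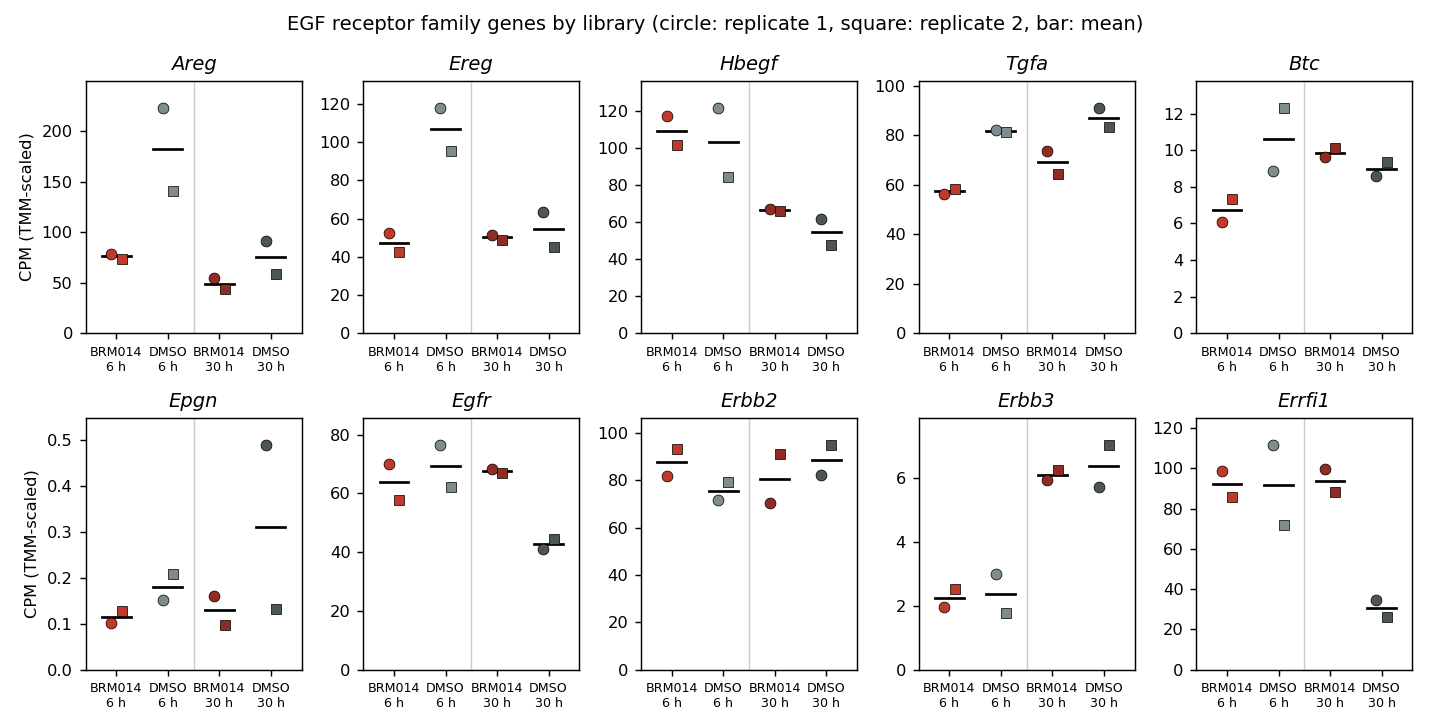
CPM (TMM-scaled, vertical axis from 0) of each of the 10 genes in the 8 libraries, with BRM014 and DMSO side by side at 6 h and at 30 h. Circles are replicate 1, squares replicate 2 and bars the mean of both. Errfi1 lies between 88.4 and 99.6 CPM in BRM014 at 30 h and between 26.4 and 34.6 CPM in DMSO at 30 h.

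Per kilobase of exon (union of exons in GENCODE M21, which may differ from the annotation behind the counts), Areg made up most of the ligand transcripts in DMSO at 6 h. Its share of the summed level of the 6 ligand genes was 45.8% and 46.9% in BRM014 at 6 h, against 64.5% and 58.9% in DMSO at 6 h. Hbegf held 34.9% and 33.1% in BRM014 at 6 h, against 18.0% and 18.1% in DMSO. The summed ligand level was 141 and 129 CPM per kb in BRM014 at 6 h, against 285 and 197 in DMSO, and 106 and 93.1 CPM per kb in BRM014 at 30 h, against 140 and 101 in DMSO. At 30 h the Areg share was 42.7% and 38.2% in BRM014, against 53.6% and 48.0% in DMSO, and that of Hbegf 26.8% and 30.0% in BRM014, against 18.6% and 19.8% in DMSO. These sums and shares are descriptions without a test.

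**Figure D2:**
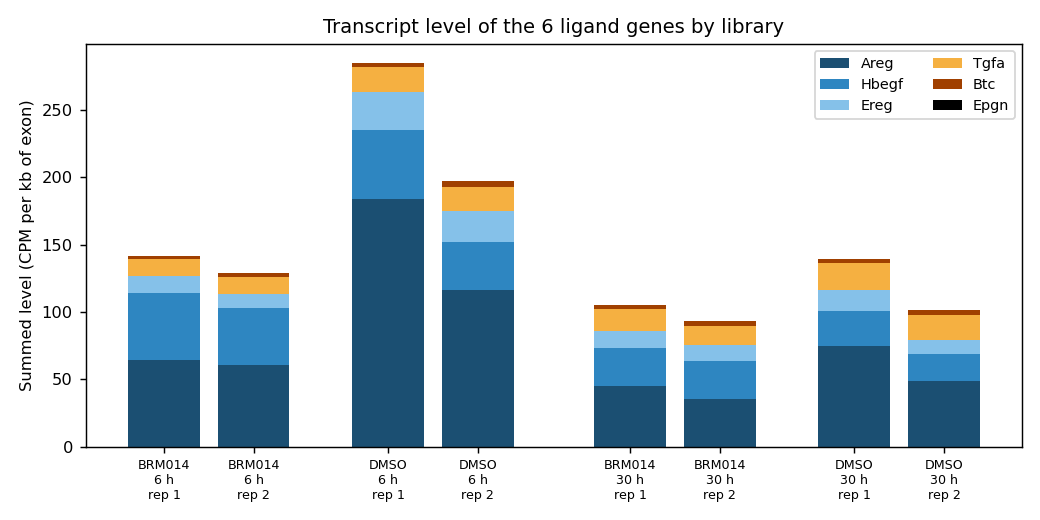
Level of the 6 ligand genes in each library in CPM per kb of exon, stacked by gene. The Areg segment is 64.7 and 60.5 in BRM014 at 6 h and 183.6 and 116.2 in DMSO at 6 h.

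Among the receptor genes Egfr alone was called between BRM014 and DMSO, as higher at 30 h. Egfr was at 68.2 and 66.9 CPM in BRM014 at 30 h, against 41.2 and 44.6 CPM in DMSO at 30 h. At 6 h it was at 70.2 and 57.9 CPM in BRM014, overlapping the DMSO libraries at 76.6 and 62.3 CPM. The log2 fold change at 30 h was 0.65 ± 0.13 (adjusted p = 0.00124), it stayed between 0.61 and 0.71 with any 1 library left out, and that at 6 h was -0.12 ± 0.12 (adjusted p = 0.543). The difference between the effects, 0.77 ± 0.18, passed (adjusted p = 0.0189). Its call ended on dropping replicate 1 of DMSO at 6 h (0.59, adjusted p = 0.118), replicate 2 of BRM014 at 6 h (0.64, adjusted p = 0.116) or either replicate of BRM014 at 30 h (0.76 and 0.79, adjusted p = 0.0527 and 0.0606).

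Erbb2, the shared partner of the other receptors, had the highest receptor level per length of exon in all 8 libraries. It was at 82.1 and 93.2 CPM in BRM014 at 6 h, against 71.6 and 79.3 CPM in DMSO (0.22 ± 0.13, adjusted p = 0.260), and at 70.4 and 91.1 CPM in BRM014 at 30 h, against 82.5 and 95.1 CPM in DMSO (-0.13 ± 0.13, adjusted p = 0.446). Erbb3, the neuregulin receptor, was low, at 1.95 and 2.52 CPM in BRM014 at 6 h, against 3.0 and 1.77 CPM in DMSO, and 5.94 and 6.26 CPM in BRM014 at 30 h, against 5.71 and 7.04 CPM in DMSO. The BRM014 and DMSO libraries overlapped at both times for Erbb3 (-0.09 ± 0.30 at 6 h and -0.07 ± 0.25 at 30 h, adjusted p = 0.868 and 0.862). Erbb2 overlaps the gene Mien1, and Ereg, Hbegf, Egfr, Erbb3 and Errfi1 overlap small or long non-coding genes. The strand setting of the counting was not given, so reads from such partners cannot be told apart here.

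Errfi1 had the largest rise. At 30 h it was at 99.6 and 88.4 CPM in BRM014, against 34.6 and 26.4 CPM in DMSO, and the groups were far apart. At 6 h BRM014 libraries had 98.8 and 85.9 CPM, between the 2 DMSO libraries at 112 and 72.1 CPM. The log2 fold change was 1.63 ± 0.18 at 30 h (adjusted p = 1.59e-05), a 3.09-fold higher level, and 0.01 ± 0.17 at 6 h (adjusted p = 0.988). The effect at 30 h exceeded that at 6 h by 1.62 ± 0.25 (adjusted p = 0.00192). With any 1 library left out, the 30 h value stayed between 1.44 and 1.84 and the difference between 1.24 and 1.92, and both kept their calls.

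At 30 h 4 of the 9 tested members were called, 2 higher (Errfi1 and Egfr) and 2 lower (Areg and Tgfa), beside 35.9% of all tested genes, 16.8% higher and 19.1% lower. The members' median log2 fold change was -0.07, against -0.00457 over all tested genes. Ribosomal protein scaling left the 2 higher calls and neither of the lower ones, and over all genes it made 57.7% of the calls higher, against 46.8% with TMM. For the difference between the times 3 members were called, Errfi1, Ereg and Egfr, each with a more positive effect at 30 h, beside 6.47% of all tested genes, 3.89% with a positive and 2.59% with a negative difference. The 766 calls over all genes became 351 and 556 on dropping replicate 1 and 2 of DMSO at 6 h, 390 and 373 on dropping those of BRM014 at 6 h, and 416 on dropping replicate 2 of BRM014 at 30 h. The positive share over all genes was 72.9% of the calls with ribosomal protein scaling, against 60.1% with TMM.

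**Figure D3:**
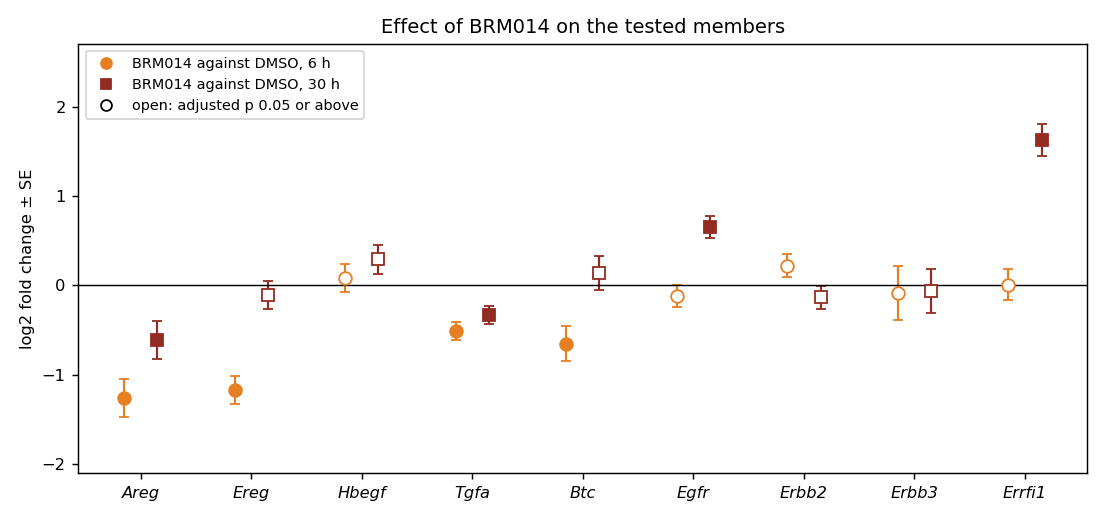
Log2 fold change of BRM014 against DMSO ± standard error for the 9 tested members at 6 h (circles) and 30 h (squares). Filled symbols have an adjusted p below 0.05. Errfi1 lies near 0 at 6 h and at 1.63 at 30 h, while Areg lies below 0 at both times.

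Several members also differed between the times in the vehicle alone. In DMSO 5 members were lower at 30 h than at 6 h and 1 was higher, beside 35.2% of all tested genes, 17.2% lower and 18.0% higher. Errfi1 fell 3.02-fold (-1.60 ± 0.18, adjusted p = 6.12e-05), and Areg (-1.28 ± 0.21, adjusted p = 0.000624), Ereg (-0.98 ± 0.16, adjusted p = 0.000556), Hbegf (-0.92 ± 0.16, adjusted p = 0.000961) and Egfr (-0.69 ± 0.13, adjusted p = 0.00118) fell too. Erbb3 rose by 1.42 ± 0.27 (adjusted p = 0.00175). These 6 calls held with any 1 library left out. Library totals and ribosomal protein scaling gave 65.9% and 64.4% of all calls as higher, against 51.2% with TMM, and the members had 6 calls with each.

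Under BRM014, 2 members were lower at 30 h than at 6 h and 2 were higher. Errfi1 (0.02 ± 0.17, adjusted p = 0.925), Egfr (0.08 ± 0.12, adjusted p = 0.653) and Ereg (0.08 ± 0.16, adjusted p = 0.719) did not pass between 30 h and 6 h of BRM014. Hbegf fell by 0.71 ± 0.16 (adjusted p = 0.00386) and Erbb3 rose by 1.44 ± 0.27 (adjusted p = 0.00139), with 67.1 and 66.3 CPM at 30 h against 117 and 102 CPM at 6 h for Hbegf. Areg was lower (-0.64 ± 0.21, adjusted p = 0.0317) and Btc higher (0.55 ± 0.20, adjusted p = 0.0408), both with calls that ended with DESeq2, with ribosomal protein scaling, on dropping either BRM014 library at 6 h and on dropping replicate 2 of BRM014 at 30 h; that of Btc ended on dropping replicate 1 at 30 h too. The 4 calls compare with 36.5% of all tested genes, 19.6% higher and 16.9% lower. The time comparisons share libraries with the treatment comparisons, so a low DMSO value at 30 h enters both the fall of Errfi1 in DMSO and its higher level under BRM014. The replicates also differed: in DMSO at 6 h replicate 1 was the higher in 7 of the 9 members, by a median ratio of 1.44 over those 7 and at most 1.70, while it was the higher in 50.9% of all tested genes. In all 4 groups replicate 1 was the higher for Areg, Ereg, Hbegf and Errfi1, and replicate 2 for Btc and Erbb2, an order not counted over all tested genes. The part of this spread in the results was not tested beyond leaving each library out.

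**Figure D4:**
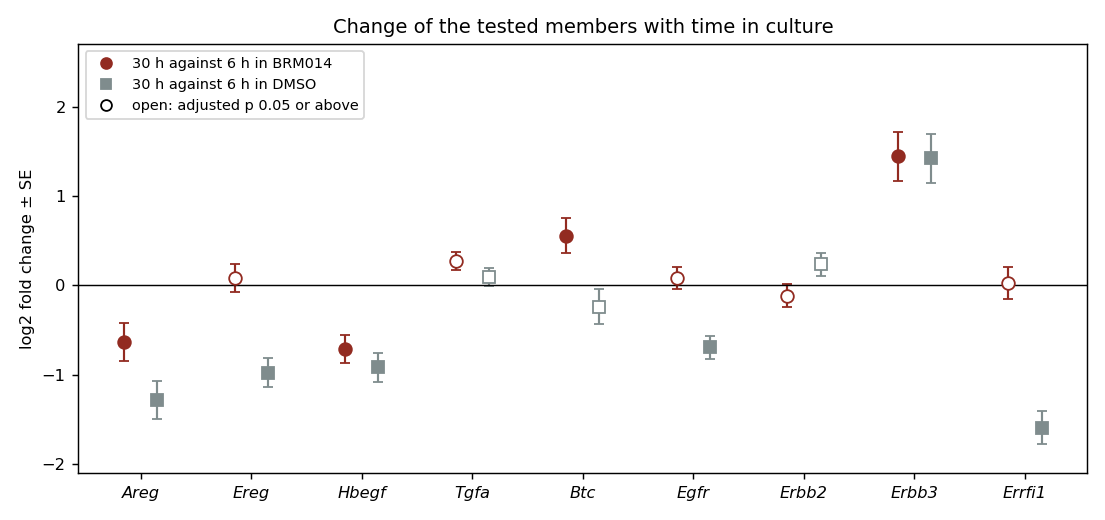
Log2 fold change of 30 h against 6 h ± standard error for the 9 tested members in BRM014 (circles) and in DMSO (squares). Filled symbols have an adjusted p below 0.05. Errfi1, Ereg and Egfr lie near 0 in BRM014 and between -1.60 and -0.69 in DMSO, and Erbb3 lies near 1.4 in both.

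Of the 6 other genes of the family, Nrg1, Egf and Nrg2 passed the filter on low counts. Nrg1, the gene for neuregulin 1, a ligand of ERBB3, was at 56.2 and 46.0 CPM in BRM014 at 6 h, against 136 and 110 CPM in DMSO, and at 98.0 and 96.4 CPM in BRM014 at 30 h, against 121 and 119 CPM in DMSO. It fell at 6 h (-1.27 ± 0.12, adjusted p = 8.30e-06) and did not pass at 30 h (-0.31 ± 0.12, adjusted p = 0.0602), and the difference between the effects passed (0.96 ± 0.17, adjusted p = 0.00456). The 30 h value was called with the replicate number as a block (-0.31, adjusted p = 0.0205). It was also called with no filter on low counts (-0.31), where p-values carry little weight as said for Areg. Dropping replicate 1 or 2 of DMSO at 6 h gave -0.30 each time. Egf itself had 20 to 54 counts in a library, at 1.54 and 1.32 CPM in BRM014 at 6 h, against 2.75 and 1.56 CPM in DMSO, and did not pass at 6 h (-0.59 ± 0.38, adjusted p = 0.287) or 30 h (-0.89 ± 0.41, adjusted p = 0.105). Nrg2 had 8 to 23 counts in a library and did not pass at 6 h (-1.32 ± 0.47, adjusted p = 0.0603) or 30 h (-0.02 ± 0.41, adjusted p = 0.971). With only the libraries compared, Nrg2 was called as lower at 6 h (-1.30, adjusted p = 0.0476). Nrg4 had 0 to 4 counts in a library, and Nrg3 and the receptor gene Erbb4 had none in any.

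Around the receptors, genes of the surrounding pathway were counted in 5 lists; values of a gene are log2 fold changes of BRM014 against DMSO, at 6 h and then at 30 h where 2 are given. Of 11 tested genes for ligand shedding and transport, 1 rose and 4 fell at 6 h and 2 rose and 3 fell at 30 h, with medians of -0.08 and -0.16. These are 9.09% higher and 36.4% lower at 6 h and 18.2% and 27.3% at 30 h, beside 9.35% and 14.4% at 6 h and 16.8% and 19.1% at 30 h over all tested genes. Frmd8, whose product stabilises the iRhom and ADAM17 sheddase complex, rose (0.46 ± 0.09, then 0.56 ± 0.09), and Cnih4, a cargo receptor gene of the cornichon family (-1.14 ± 0.12, then -1.02 ± 0.12), and the rhomboid protease gene Rhbdl2 (-1.23 ± 0.18, then -0.73 ± 0.16) fell. The metalloprotease gene Adam9 was called at 30 h (0.28 ± 0.10, adjusted p = 0.0419), a call that ended with ribosomal protein scaling, with only the libraries compared, and on dropping any 1 BRM014 library or replicate 1 of DMSO at 30 h (0.16 to 0.30).

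Of 23 tested genes for adaptors and effectors, 2 rose and 5 fell at 6 h and 5 rose and 5 fell at 30 h. The shares, 8.7% higher and 21.7% lower at 6 h and 21.7% each way at 30 h, compare with those over all tested genes (9.35% and 14.4%, then 16.8% and 19.1%). The PI3-kinase subunit gene Pik3cb rose at both times (1.14 ± 0.09, then 1.45 ± 0.09), with 176 and 185 CPM in BRM014 at 30 h against 62.7 and 69.0 CPM in DMSO. The regulatory subunit gene Pik3r1 fell (-0.81 ± 0.13, then -1.17 ± 0.13), as did Eps8, which encodes an EGFR kinase substrate (-1.17 ± 0.10, then -0.38 ± 0.10). The 30 h call of Eps8 ended on dropping replicate 1 of BRM014 at 30 h (-0.32, adjusted p = 0.0621) and with ribosomal protein scaling (-0.30, adjusted p = 0.0995). Stat3 rose at 6 h (0.47 ± 0.10), and the docking protein gene Gab2 rose at 30 h (1.79 ± 0.15), with 42.4 and 54.4 CPM in BRM014 against 12.1 and 15.8 CPM in DMSO.

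Of 14 tested genes of the Ras to ERK cascade, none rose and 3 fell at 6 h, and 3 rose and 6 fell at 30 h, with medians of -0.07 and -0.18. At 6 h 21.4% were lower, and at 30 h 21.4% were higher and 42.9% lower, beside 14.4% lower at 6 h and 16.8% higher and 19.1% lower at 30 h over all tested genes. The scaffold gene Ksr1 fell at both times (-1.36 ± 0.18, then -1.07 ± 0.17). Map2k1, the gene for MEK1, fell at 6 h (-0.57 ± 0.09), and Mapk3, the gene for ERK1, fell at 30 h (-0.63 ± 0.09), while Nras (0.53 ± 0.09) and Braf (0.50 ± 0.11) rose at 30 h. With ribosomal protein scaling 3 rose and 2 fell at 30 h. Of 21 tested genes for receptor attenuators, none rose and 3 fell at 6 h and 2 rose and 3 fell at 30 h. The 14.3% lower at 6 h lie near the share over all tested genes (14.4%), and the 9.52% higher and 14.3% lower at 30 h lie below it (16.8% and 19.1%). Lrig1, whose product promotes loss of ERBB receptors, fell at 6 h (-1.05 ± 0.14, adjusted p = 0.000125) with 64.9 and 53.6 CPM in BRM014 against 138 and 107 CPM in DMSO. Its 30 h call (-0.48 ± 0.14) ended on dropping replicate 1 of DMSO at 30 h (-0.33, adjusted p = 0.125) and replicate 2 of BRM014 at 30 h (-0.40, adjusted p = 0.132). The ubiquitin ligase gene Cblb was lower at 6 h (-0.53 ± 0.12), a call that ended on dropping replicate 1 of DMSO or replicate 2 of BRM014 at 6 h (adjusted p = 0.0565 and 0.0891). The adaptor gene Sh3kbp1 rose at 30 h (0.56 ± 0.11). Cd2ap (0.46 ± 0.11) and the sorting gene Tsg101 (-0.36 ± 0.10) were called at 30 h, but neither on dropping replicate 1 of DMSO at 30 h (adjusted p = 0.0552 and 0.0874) nor replicate 2 of BRM014 at 30 h (adjusted p = 0.0753 and 0.129), and Tsg101 not with ribosomal protein scaling (adjusted p = 0.118). With either of these libraries left out, 1 gene of the list was called at 30 h.

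Among 20 genes known to be induced by ERK signalling, 3 rose and 4 fell at 6 h, beside 9.35% higher and 14.4% lower over all tested genes. At 30 h 12 rose (60.0%, against 16.8% of all tested genes) and 4 fell, beside 19.1% lower over all tested genes. The medians of the list were -0.04 at 6 h and 0.60 at 30 h. Plaur, the urokinase receptor gene, rose at 30 h (2.13 ± 0.15), with 627 and 807 CPM in BRM014 against 182 and 145 CPM in DMSO, and so did the ephrin receptor gene Epha2 (1.08 ± 0.11). Fos fell at 30 h (-2.12 ± 0.21), with 9.42 and 6.58 CPM in BRM014 against 40.5 and 28.3 CPM in DMSO. At 6 h the immediate-early gene Egr1 rose (1.59 ± 0.26), and the phosphatase gene Dusp4 (-1.23 ± 0.14, and -0.72 ± 0.13 at 30 h) and the ETS factor gene Etv4 (-1.27 ± 0.24) fell. Spry4, a feedback inhibitor gene, was called as higher at 6 h from 24 and 34 counts in BRM014 against 0 and 2 counts in DMSO, a ratio of 26.3 (exact 95% interval from 6.95 to 222, for counting error alone). At 6 h the list had 11 calls with library totals (7 higher and 4 lower), 11 with no filter on low counts (6 and 5) and 4 on dropping replicate 2 of BRM014 at 6 h. Between 30 h and 6 h, 3 of the 20 were higher and 1 lower under BRM014, and 3 were higher and 11 lower in DMSO, comparisons that share the same libraries with those above. Of all tested genes, 19.6% were higher and 16.9% lower under BRM014, and 18.0% were higher and 17.2% lower in DMSO.

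**Figure D5:**
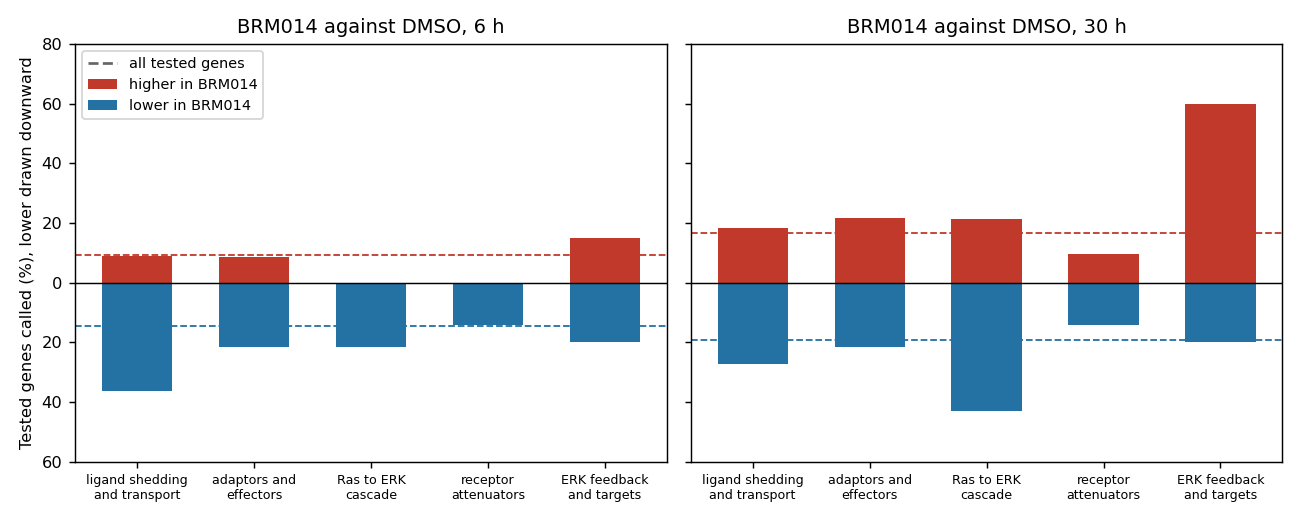
Share of tested genes called in each of 5 pathway lists for BRM014 against DMSO at 6 h (left) and 30 h (right), with higher genes drawn upward and lower genes downward. Dashed lines give the same shares over all tested genes. The ERK feedback and target list reaches 60.0% higher at 30 h. The lists were chosen with earlier results of these data known.

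By Euclidean distance between profiles of log2 CPM centred over the 8 libraries, among 9757 candidate genes, the genes most like Areg were Fxyd5, an ion transport regulator gene (distance 0.47, Pearson r = 0.98), Serp2 (0.63, r = 0.99) and Itprip (0.65, r = 0.97). Those most like Ereg were Gpc1, the gene for the heparan sulfate carrier glypican 1 (0.25, r = 0.99), the cornified envelope gene Sprr1a (0.39, r = 0.97) and Chrnb1 (0.40, r = 0.97). Errfi1 was most like the matrix gene Fbln2 (0.54, r = 0.97), the transcription factor gene Runx1 (0.69, r = 0.95) and the thrombin receptor gene F2r (0.70, r = 0.97). The 8 points of each correlation are 4 groups of 2 libraries, so these values are descriptions without a test. Gpc1 had log2 fold changes of -1.05 ± 0.13 at 6 h and -0.17 ± 0.13 at 30 h, where Ereg had -1.17 and -0.11. Fbln2 had 0.33 ± 0.10 and 1.71 ± 0.10, where Errfi1 had 0.01 and 1.63. As these genes were picked for near profiles over the same libraries, near fold changes follow from the choice.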

How the data were processed

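Stranded total RNA libraries of NMuMG cells were read from 1 end over 50 bases, per the labels' protocols. The authors deposited whole-number counts for each gene, not normalized, under Entrez ID and symbol. The submitters' processing notes name mm9, Subread, SAMtools 0.1.19 and featureCounts; order, annotation and strand setting were not given in the sources used here. No column was left unused.

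The deposited counts went into edgeR 4.0.16 under R 4.3.3 without change. Genes were kept with filterByExpr (11835 of 21240, 55.7%), scaled by TMM and fitted with 1 mean per group over 8 libraries, with 4 residual degrees of freedom. Standard errors were taken as |log2 fold change| over the root of its F statistic. Tests were 2-sided, with Benjamini-Hochberg adjustment over all tested genes and 0.05 as the threshold. The script recovered large changes put into simulated counts of well-counted genes in BRM014 at 30 h. That simulation did not cover smaller changes, the difference between the times or spread tied to a replicate number. Replicate libraries exceeded counting noise in each group, with a chi-square of 6.72 to 17.9 times its degrees of freedom, and edgeR's biological coefficient of variation was 9.3%. Log2 CPM for profiles used a prior count of 2.

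Alternatives were RLE factors, library totals, scaling by 78 ribosomal protein genes, no filter, a filter of 1 CPM in 4 libraries, DESeq2 1.42.0, limma-voom (limma 3.58.1), only the libraries compared, a replicate block and each library left out. Promoter windows are the first 250 bases of RefSeq promoter entries of GRCm38.p6, and other gene features come from GENCODE M21 and RefSeq tables of that build. No coordinates were taken from the mm9 files.

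The members, lists and tests were chosen with earlier results of these data known. The named genes are the 10 members, the 6 other ERBB ligand and receptor genes, and of each pathway list the 2 called genes in each direction with the smallest p at each time. They also include the 3 genes (mean log2 CPM of at least 2) nearest in profile to each member called with a log2 fold change of at least 1 in size, and the tested genes among the 2 next to a member on each side. Alternatives were extended to the genes that are not members after their values were seen.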

Additional observations from a re-analysis of the deposited data

Results flagged for a closer look

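For 3 members the effect of BRM014 differed between 30 h and 6 h by a test of the difference itself. It was larger at 30 h for Errfi1 by 1.62 on the log2 scale (effects of 1.63 at 30 h and 0.01 at 6 h). For Ereg the effect was less negative at 30 h by 1.06 (-0.11 at 30 h and -1.17 at 6 h). For Egfr the difference was 0.77 (0.65 at 30 h and -0.12 at 6 h). The calls for Ereg and Egfr ended with some single libraries left out, while that for Errfi1 held each time.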

How the results depend on the processing

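With RLE factors every member kept its direction and its side of the threshold in the 5 comparisons. The 6 members called between the times in DMSO, Areg, Ereg and Tgfa at 6 h, Egfr and Errfi1 at 30 h, and the difference for Errfi1 kept their calls under every alternative run for them. Ribosomal protein scaling left 2 members called at 30 h instead of 4, and DESeq2 left 2 instead of 4 between the times in BRM014. Leaving out 1 library gave 2 to 4 members called at 30 h, 1 to 4 for the difference and 2 to 5 between the times in BRM014. Over all genes the calls between the times became 2331 instead of 4167 in DMSO without its replicate 1 at 6 h, and 2227 and 2815 instead of 4317 in BRM014 without its replicates 1 and 2 at 6 h. The causes were not tested.

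Signs that turned were of values that did not pass. Erbb3 became 0.01 at 30 h with ribosomal protein scaling, and its difference became -0.029 with library totals, -0.0042 with no filter and -0.016 with limma-voom. Nrg2 at 30 h became 0.01 with library totals, 0.065 with ribosomal protein scaling and 0.0040 with DESeq2. Leaving out 1 library gave, at 6 h, -0.16 to 0.40 for Hbegf, -0.26 to 0.072 for Egfr, -0.42 to 0.38 for Erbb3 and -0.28 to 0.39 for Errfi1. At 30 h it gave -0.34 to 0.16 for Ereg, -0.33 to 0.039 for Erbb2, -0.20 to 0.095 for Erbb3 and -0.37 to 0.34 for Nrg2. The differences ranged over -0.11 to 0.46 for Hbegf, -0.44 to 0.36 for Erbb3 and -0.79 to 0.13 for Egf. Between the times Btc in DMSO ranged over -0.43 to 0.0024, and in BRM014 Ereg over -0.071 to 0.24, Egfr over -0.058 to 0.22, Erbb2 over -0.32 to 0.054 and Errfi1 over -0.075 to 0.13.

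The labels do not say that replicate numbers mark a shared day. Deviations of same-numbered libraries correlated by over 0.1 in 5 of 6 pairs of groups (0.011 to 0.201), a hint from the data and not the design. Of the 9 tested members 6 had the same replicate higher in all groups, a count that was not set against all tested genes. As the labels give no pairing, the main fit had no block, and any spread tied to the replicate number counts there as noise. With the replicate number as a block, 4 members were called at 6 h, 5 at 30 h (Hbegf added, 0.31), 4 for the difference (Areg added, 0.63), 6 between the times in DMSO and 5 in BRM014 (Tgfa added, 0.27), and Nrg1 was called at 30 h (-0.31) and Nrg2 at 6 h (-1.30). Over all genes the block gave 726 positive and 511 negative differences, and no filter 719 and 590, against 460 and 306. Ribosomal protein scaling gave 1434 lower at 30 h against 2258, 114 negative differences against 306, and 1036 and 850 lower between the times in DMSO and BRM014, against 2034 and 1999. Of the pathway lists at 30 h, that scaling left 3 shedding, 6 adaptor, 5 cascade and 3 attenuator genes called, against 5, 10, 9 and 5. The adaptor list at 6 h had 4 calls instead of 7 without replicate 1 of DMSO or without either BRM014 library, the attenuator list 1 instead of 3 without replicate 2 of BRM014, and the shedding list at 30 h 3 instead of 5 without replicate 1 of DMSO, without replicate 2 of BRM014, and with only the libraries compared. Library totals gave 1691 higher at 6 h against 1106. The ERK target list had 12 differences called with the block and with no filter, against 6. Ribosomal protein scaling moved the median of all genes between the times in BRM014 by 0.105, and 73.8% of calls there were higher, against 53.7%. The low counts of Epgn, Nrg4, Nrg2, Egf and Erbb3 limit what can be said of them.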

Other observations

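Of the 10 tested genes that are next to or 1 gene away from a member and are not members themselves, 1 was called at 6 h and 2 at 30 h, beside 23.8% and 35.9% of all tested genes. Add2, near Tgfa, which encodes a membrane skeleton protein, fell at both times (-0.64 ± 0.11, adjusted p = 0.000654, then -0.90 ± 0.11, adjusted p = 2.39e-05). Tnfrsf9, near Errfi1, which encodes a receptor of the tumour necrosis factor family, rose at 30 h (1.19 ± 0.20, adjusted p = 0.000434) and did not pass at 6 h (0.53 ± 0.23, adjusted p = 0.112). Park7, between Errfi1 and Tnfrsf9, did not pass at 6 h (0.03 ± 0.10, adjusted p = 0.860) or 30 h (0.05 ± 0.10, adjusted p = 0.745). On chromosome 5, where Epgn, Ereg, Areg and Btc follow each other among the protein-coding genes, the tested gene beyond Epgn, Mthfd2l, a folate enzyme gene, did not pass either (0.12 ± 0.15, adjusted p = 0.621, then -0.19 ± 0.15, adjusted p = 0.342). Cystm1 and Pfdn1, near Hbegf, and Pa2g4, next to Erbb3, were not called at 6 h (adjusted p = 0.160, 0.414 and 0.162) or 30 h (adjusted p = 0.0594, 0.475 and 0.905). Beside Erbb2, neither Pgap3, Mien1 nor the adaptor gene Grb7 was called at 6 h (adjusted p = 0.0752 to 0.931) or 30 h (adjusted p = 0.121 to 0.567).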
